A study of Mus musculus with 18 samples.

Results

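The maternal diet effect in brown fat was compared before birth and at weaning, to find genes whose response to maternal fish oil took opposite signs at the 2 ages. For each gene the difference was the weaned diet effect minus the fetal diet effect, each as the log2 ratio of fish oil to control. The comparison used 12 of the 18 libraries of the series, all from interscapular brown fat of C57BL/6 mice, in 4 groups of 3. Fetal control and fetal fish oil libraries came from fetuses whose mothers ate the control or the fish oil diet. Weaned control and weaned fish oil libraries came from offspring of 3 weeks whose mothers kept the same diets through pregnancy and lactation. No group carried a mutation or a transgene, and the remaining 6 libraries came from adults of 15 weeks that had eaten a high fat diet for 8 weeks. The labels do not give the stage of the fetuses, and they do not say whether a library was 1 animal, 1 litter or a pool, so p-values measure the spread between these libraries only.

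Brown fat burns fatty acids and glucose in its mitochondria and releases the energy as heat through the uncoupling protein UCP1. The tissue also makes fatty acids itself: citrate leaves the mitochondrion through the carrier SLC25A1, ATP citrate lyase (ACLY) and acetyl-CoA carboxylase (ACACA) turn it into malonyl-CoA, and fatty acid synthase (FASN), elongases and desaturases build and modify the chain. In the liver, long chain n-3 fatty acids such as those of fish oil are known to lower the transcription of these genes through the factor SREBP-1c, which the gene Srebf1 encodes. The fetus receives fatty acids across the placenta, and the suckling pup receives them with milk.

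Forward counts ran from 9434710 to 17943071 per library in these 12 libraries. Of these counts, 47.3 to 61.0% fell on mt-Rnr2, a mitochondrial rRNA, and at weaning 58.4 to 61.0% with the control diet against 53.1 to 54.9% with fish oil. A floor of 3 counts corresponded to 0.167 to 0.318 CPM (counts scaled to a common library size), for counting error only. Ucp1 and Cidea, defining transcripts of brown adipocytes, were present in every library, at 943 to 4463 CPM and 281 to 637 CPM. The biological coefficient of variation was 8.98% among fetal and 26.8% among weaned libraries, and both ages shared a single estimate in the fit below. The second principal component (12.4% of the variance) set weaned control replicates 1 and 2 and weaned fish oil replicate 1, at 34.9 to 39.4, apart from weaned control replicate 3 and weaned fish oil replicates 2 and 3, at -40.7 to -14.6, so that the weaned libraries split across the diets. Xist, the RNA of the inactive X chromosome, stood at 139 to 329 CPM in 4 fetal libraries (2 of each diet), which also held the Y-linked Ddx3y, and at 0.326 to 6.25 CPM in the other 8 libraries. All weaned libraries held Ddx3y, at 71.2 to 109.5 CPM, with Xist at 0.326 to 2.13 CPM. The mix of sexes thus differed between the ages. The part of these library differences in the results was not tested.

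Across the transcriptome, opposite signs were as frequent as equal signs. Of 14413 genes tested, 7108 (49.3%) had diet effects of opposite sign, 3565 (24.7%) negative in the fetus and positive at weaning and 3543 (24.6%) the reverse. Across these genes the fetal and weaned effects had a Pearson correlation of 0.09, given as a description, since genes are not independent replicates. An unadjusted p under 0.05 at both ages was reached by 137 genes (0.951%), of which 63 (0.437%) had opposite signs and 74 (0.513%) the same sign. The diets had no overlap in the fetus for 21.9% of the genes and none at weaning for 10.2%. Both ages lacked overlap in opposite directions for 169 genes (1.17%), of which 94 (0.652%) were lower with fish oil in the fetus and higher at weaning, and in the same direction for 136 genes (0.944%). The results below therefore give the test of the difference and the value of each library.

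The difference between the diet effects passed the threshold for 5 of 14413 genes (0.0347%; edgeR quasi-likelihood test, Benjamini-Hochberg adjusted p under 0.05). In each of the 5, the difference was positive and the fitted effect was negative in the fetus and positive at weaning. Snx10, Setd7, Prodh and Aspg, described here, were 4 of these genes. An unadjusted p under 0.05 was reached by 1245 genes (8.64%), 709 with a positive (4.92%) and 536 with a negative difference (3.72%). Of these 1245 genes, 90.7% had effects of opposite sign. Opposite signs among genes picked by the difference thus follow largely from that choice. The fetal effect alone passed for 9 genes (0.0624%; 7 lower, 0.0486%) and the weaned effect alone for 4 (0.0278%; 3 higher, 0.0208%). The count of 5 depended on single libraries: it was 293 without weaned fish oil replicate 1, 40 without weaned control replicate 3, 2 without fetal fish oil replicate 3, 1 without weaned fish oil replicate 3 and 0 without any of the other 8. DESeq2 called 74 genes and limma-voom called none (1188 genes at an unadjusted p under 0.05).

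**Figure D1:**
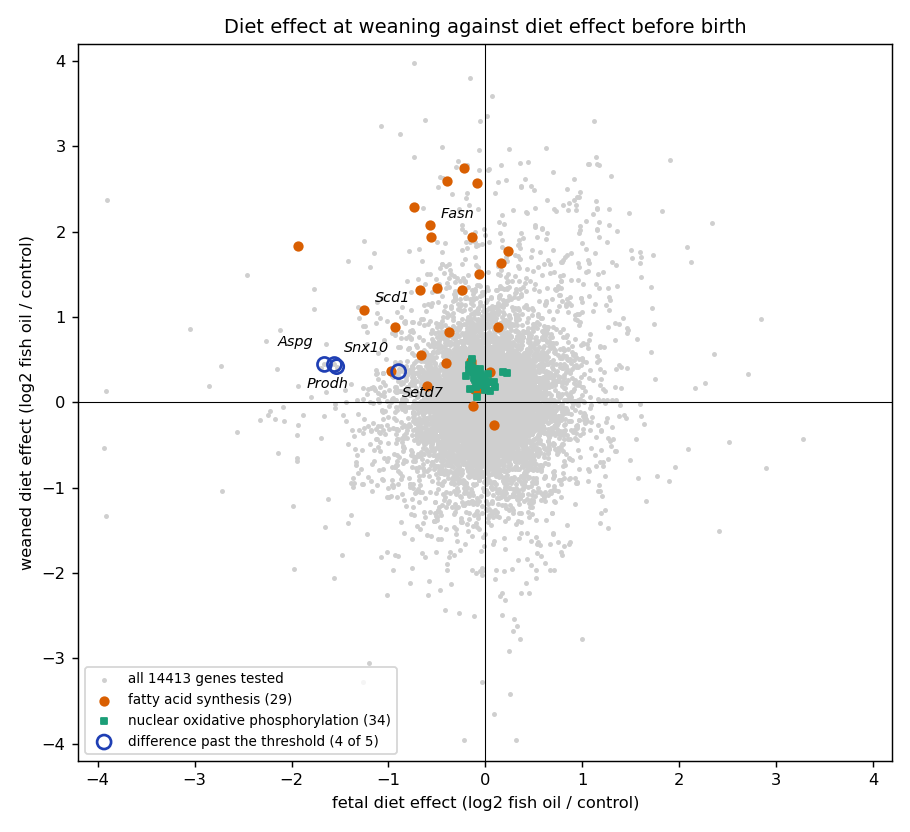
Each point is a gene, with the fetal diet effect on the x axis and the weaned diet effect on the y axis (log2 of fish oil over control). Grey points are the 14413 genes tested, of which 9 lie outside the axes, orange points the 29 fatty acid synthesis genes, green squares the 34 nuclear oxidative phosphorylation genes and blue rings 4 of the 5 genes past the threshold; most orange points lie at the upper left, with negative fetal and positive weaned effects.

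Snx10 encodes a sorting nexin, a protein of endosomal membrane traffic. Its level was 17.6, 16.4 and 12.3 CPM in fetal control and 4.94, 5.53 and 5.56 CPM in fetal fish oil libraries, then 90.1, 92.2 and 128 CPM in weaned control and 119.9, 123 and 171 CPM in weaned fish oil libraries. The fetal groups did not overlap, whereas weaned control replicate 3 lay above 2 of the weaned fish oil libraries. The fetal level fell 2.90-fold with fish oil (log2 effect -1.53 ± 0.199, SE, adjusted p = 0.0211 in edgeR), and the weaned level was 1.34-fold higher (0.42 ± 0.178, adjusted p = 0.372). The difference was 1.95 ± 0.267 on the log2 scale (adjusted p = 0.0329).

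Setd7 encodes a lysine methyltransferase that acts on histone H3 and on other proteins. Fetal control libraries held 48.3, 47.3 and 45.8 CPM, and fetal fish oil libraries 22.5, 25.2 and 28.4 CPM. Weaned control libraries held 77.3, 61.9 and 75.9 CPM, and weaned fish oil libraries 81.5, 96.9 and 98.0 CPM. The groups did not overlap at either age, and their order reversed. The fetal level fell 1.86-fold (log2 effect -0.90 ± 0.128, adjusted p = 0.0228 in edgeR), the weaned level was 1.28-fold higher, and the difference was 1.26 ± 0.179 (adjusted p = 0.0329, 95% interval 0.87 to 1.64).

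Prodh encodes proline dehydrogenase, the mitochondrial enzyme that opens the breakdown of proline, and Aspg encodes an asparaginase, which releases ammonia from asparagine. Prodh was measured at 12.0, 14.9 and 16.5 CPM in fetal control, 4.15, 5.64 and 5.01 CPM in fetal fish oil, 62.0, 60.9 and 36.8 CPM in weaned control and 66.3, 72.3 and 78.7 CPM in weaned fish oil libraries. Aspg was measured at 8.64, 7.01 and 5.04 CPM in fetal control, 1.73, 1.77 and 3.21 CPM in fetal fish oil, 69.0, 54.9 and 73.9 CPM in weaned control and 84.9, 94.6 and 89.8 CPM in weaned fish oil libraries. Neither gene's groups overlapped at either age. Fetal Prodh fell 2.94-fold and fetal Aspg fell 3.16-fold with fish oil (adjusted p = 0.0211 and 0.0305 in edgeR), and at weaning both were 1.36-fold higher with fish oil (adjusted p = 0.369 and 0.387). The difference was 2.00 ± 0.282 for Prodh (adjusted p = 0.0329) and 2.11 ± 0.316 for Aspg (adjusted p = 0.0462). In Prodh, Aspg, Setd7 and Snx10 the fetal term was the larger of the 2, and no weaned effect passed the threshold on its own.

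**Figure D2:**
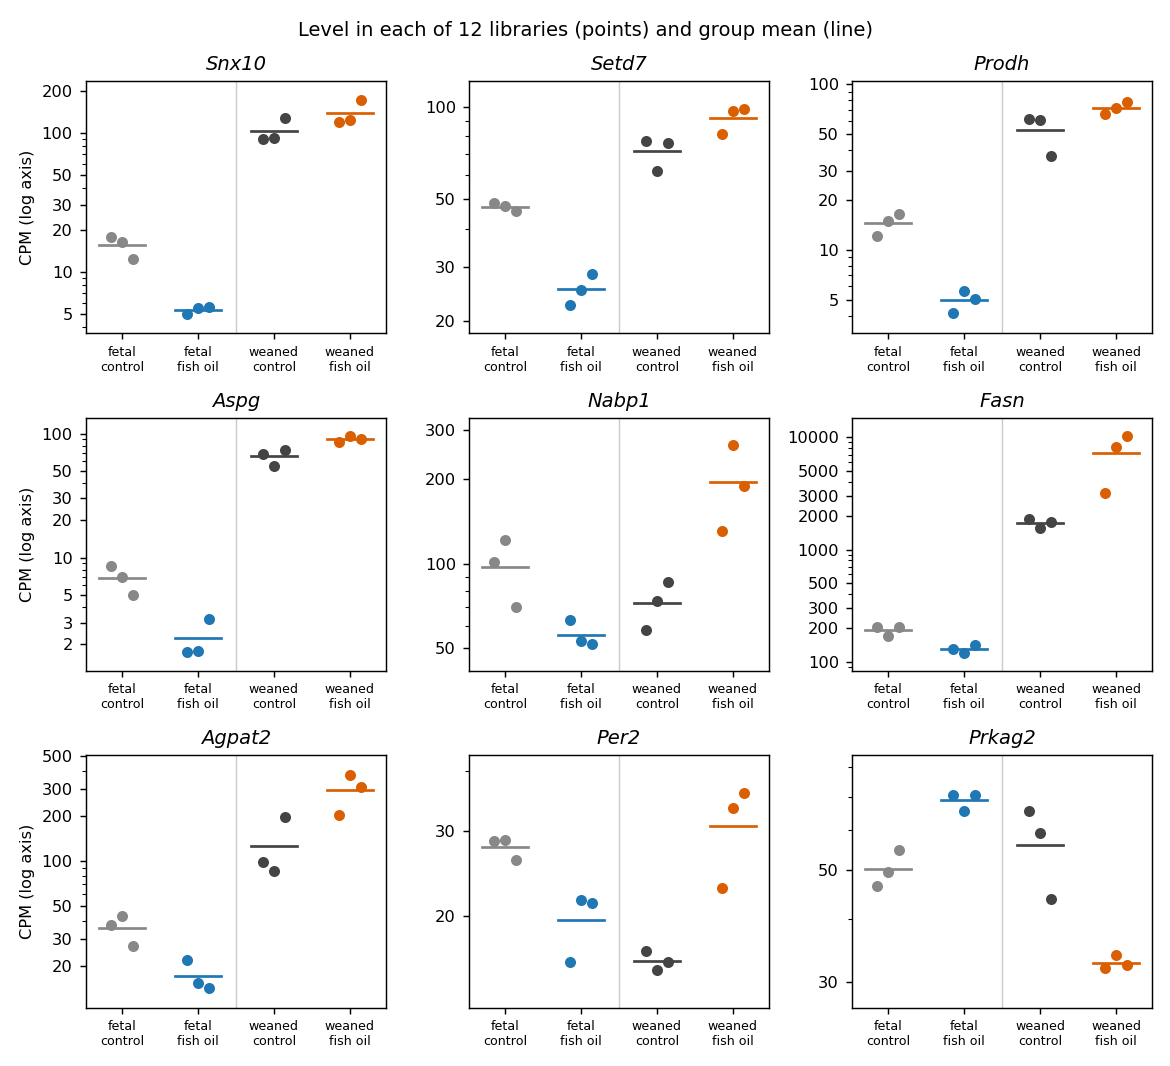
Points give the level of 9 genes in each of the 12 libraries (CPM, log axis) and lines the mean of each group of 3. In Setd7, Prodh, Aspg, Nabp1, Fasn, Agpat2 and Per2 the fish oil libraries lie below the control libraries in the fetus and above them at weaning, and Prkag2 shows the reverse order.

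The genes just outside the threshold included Prkag2 and Nabp1 (adjusted p = 0.0547) and Fasn, Cnnm2 and Per2 (adjusted p = 0.0568). A fit of all 18 libraries, in which the adult libraries also lent their spread, called 18 of 14366 genes (0.125%; 14 with a positive difference, 0.0975%, and 4 with a negative one, 0.0278%), among them the same 5 genes. Of the 18 genes, 17 had 12-library effects of opposite sign. Among the 1245 genes with an unadjusted p under 0.05 for the difference, that share was 90.7%. Of the 18, 12 did not overlap between diets at either age, in opposite directions, beside 1.17% of all genes tested. The 18 were picked by the difference, so this count is not separate evidence of a reversal. Nabp1 encodes a single-stranded DNA binding protein. Its level was 102, 121 and 69.9 CPM in fetal control and 62.8, 53.0 and 51.8 CPM in fetal fish oil libraries, and 58.1, 73.5 and 85.9 CPM in weaned control and 131, 265 and 189.5 CPM in weaned fish oil libraries. The groups did not overlap at either age, and the difference was 2.23 ± 0.353 (adjusted p = 0.0547, and 0.0139 with all 18 libraries, edgeR). Cnnm2, a magnesium transport protein, fell in the fetus (-0.81 ± 0.111, adjusted p = 0.0211) and had a weaned effect of 0.13 ± 0.107. Hr, a transcriptional corepressor, also fell in the fetus (-2.09 ± 0.293, adjusted p = 0.0220) with a weaned effect of -0.06 ± 0.227, so that its difference came from the fetal term and not from a change of sign. Its fetal fish oil libraries held only 14, 9 and 5 counts (0.692, 0.483 and 0.391 CPM), not far above the floor. Rbm47, an RNA binding protein, had effects of -0.46 and 0.90 and was called in the 18-library fit (adjusted p = 0.0491).

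The reverse order, higher with fish oil in the fetus and lower at weaning, was found in 75 of the 169 genes with no overlap between diets (0.520% of the genes tested), but none of them passed the threshold in the 12-library fit. Prkag2 encodes a regulatory subunit of AMP-activated kinase, which senses low cellular energy. Fetal control libraries held 46.6, 49.6 and 54.9 CPM of Prkag2 and fetal fish oil libraries 70.5, 65.4 and 70.7 CPM. Weaned control libraries held 65.5, 59.4 and 43.8 CPM and weaned fish oil libraries 31.9, 33.9 and 32.4 CPM. Fish oil libraries were thus the higher at the first age and the lower at the second, with a difference of -1.23 ± 0.194 (adjusted p = 0.0547, and 0.0225 with all 18 libraries, edgeR). The chloride channel gene Ano1 (effects 0.79 and -0.49) and Shprh, a ubiquitin ligase of DNA damage tolerance (0.61 and -0.34), were also called with all 18 libraries (adjusted p = 0.0497 and 0.0156). Both were without overlap at either age. Ebf2, a transcription factor of brown adipocyte identity, stood at 41.5, 49.5 and 41.0 CPM in fetal control, 55.9, 58.0 and 59.96 CPM in fetal fish oil, 43.2, 45.2 and 42.3 CPM in weaned control and 34.6, 37.0 and 31.5 CPM in weaned fish oil libraries. Its libraries did not overlap at either age, but its difference of -0.74 ± 0.154 did not pass (adjusted p = 0.174 in edgeR). The orphan nuclear receptor gene Esrrg had effects of 0.43 and -0.34 without overlap (adjusted p of the difference = 0.262). The imprinted gene Peg10 (0.38 and -0.96), the GTPase activating protein gene Arhgap20 (0.80 and -0.83), the glycosyltransferase gene Galnt18 (0.45 and -0.65), the collagen gene Col8a1 (0.63 and -0.54), the GATA cofactor gene Zfpm1 (0.53 and -0.53) and the metal ion transporter gene Slc39a8 (0.36 and -0.64) were among the 12 lowest differences without overlap, taken from 46 such genes (0.319%) with at least 5 CPM in a group and an unadjusted p under 0.05. The opposite order gave 79 such genes (0.548%), which makes 125 in all (0.867%).

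The widest shift among the gene lists was that of fatty acid synthesis. Of its 29 genes, 23 (79.3%) had a negative fetal and a positive weaned effect, beside 24.7% of all genes tested, and 1 (Elovl1) had the reverse. The median effect of the list was -0.24 in the fetus and 1.09 at weaning, and the median difference was 1.53, beside 0.00, 0.01 and 0.01 over all genes tested. No member passed the threshold for the difference in the 12-library fit, and Fasn passed it with all 18 libraries. A positive difference was found in 28 of 29 (51.1% of all genes), and in 18 with an unadjusted p under 0.05 (4.92% of all genes). The mean log2 CPM of the list was 4.77 to 4.81 in fetuses of control mothers and 4.36 to 4.46 in fetuses of fish oil mothers, without overlap. At weaning it was 5.58, 5.73 and 6.20 with the control diet and 5.86, 7.24 and 7.26 with fish oil. On this mean, fish oil replicate 1 was between the control values. The summed level of the list at weaning did not overlap, at 9133 to 10695 CPM with the control diet and 20059 to 29162 CPM with fish oil. Fish oil replicate 1 held the 20059 CPM, of which Scd1 made up 11760 CPM. Without weaned fish oil replicate 1, 16 members passed, beside 293 of all 14846 genes tested, and the median difference was 1.90. Without weaned control replicate 3, 2 members passed, beside 40 of 14836 genes, and the median difference was 2.00. The pattern of a negative fetal and a positive weaned effect held for 22 to 24 of the 29 members in each alternative that kept the low-count filter.

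The promoters of Fasn and Slc25a1 are shown because these members did not overlap between diets at either age and had differences of 2.64 and 2.97. Each stretch holds the 250 bases before the RefSeq start (GRCm38.p6, 5′ to 3′ on the gene's strand), at chr11:120824548-120824797 on the minus strand for Fasn and chr16:17928220-17928469 on the minus strand for Slc25a1. Capitals mark CCAAT boxes, the site of the factor NF-Y, on either strand (CCAAT or ATTGG), and the E-box CACGTG.
Fasn: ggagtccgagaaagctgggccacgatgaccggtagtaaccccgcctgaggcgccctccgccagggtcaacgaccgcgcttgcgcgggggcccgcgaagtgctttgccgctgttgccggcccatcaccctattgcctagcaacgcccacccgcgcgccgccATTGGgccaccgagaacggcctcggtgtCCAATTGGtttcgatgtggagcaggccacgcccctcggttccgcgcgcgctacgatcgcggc
Slc25a1: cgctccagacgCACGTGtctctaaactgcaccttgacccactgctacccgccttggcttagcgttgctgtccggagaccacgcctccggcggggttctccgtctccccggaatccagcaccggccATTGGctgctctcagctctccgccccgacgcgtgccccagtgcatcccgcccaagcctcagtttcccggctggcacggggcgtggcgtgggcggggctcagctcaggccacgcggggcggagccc
Fasn held 3 CCAAT matches, which began 90, 62 and 59 bases before the start, the last 2 overlapping in CCAATTGG. Slc25a1 held 1 CCAAT match at 125 and 1 CACGTG at 239 bases before the start. RefSeq promoters were matched for 25 of the 29 genes, some with several starts. A CCAAT box was found in 18 of their 33 promoters (54.5%) and in 33.8% of 32851 mouse promoters of the same length. CACGTG was found in 4 of 33 (12.1%, beside 6.02%) and the sterol regulatory element TCACNCCAC in 2 of 33 (6.06%, beside 1.05%), in each case on both strands. The motifs were not particular to this list: in 19 promoters of cholesterol synthesis genes they were found in 84.2, 21.1 and 5.26%, in the same order. Of the genes past the threshold, Snx10 held 1 CCAAT match, and Setd7, Prodh and Aspg held none of the motifs. These matches describe the letters of these windows and not the binding of a factor.

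**Figure D3:**
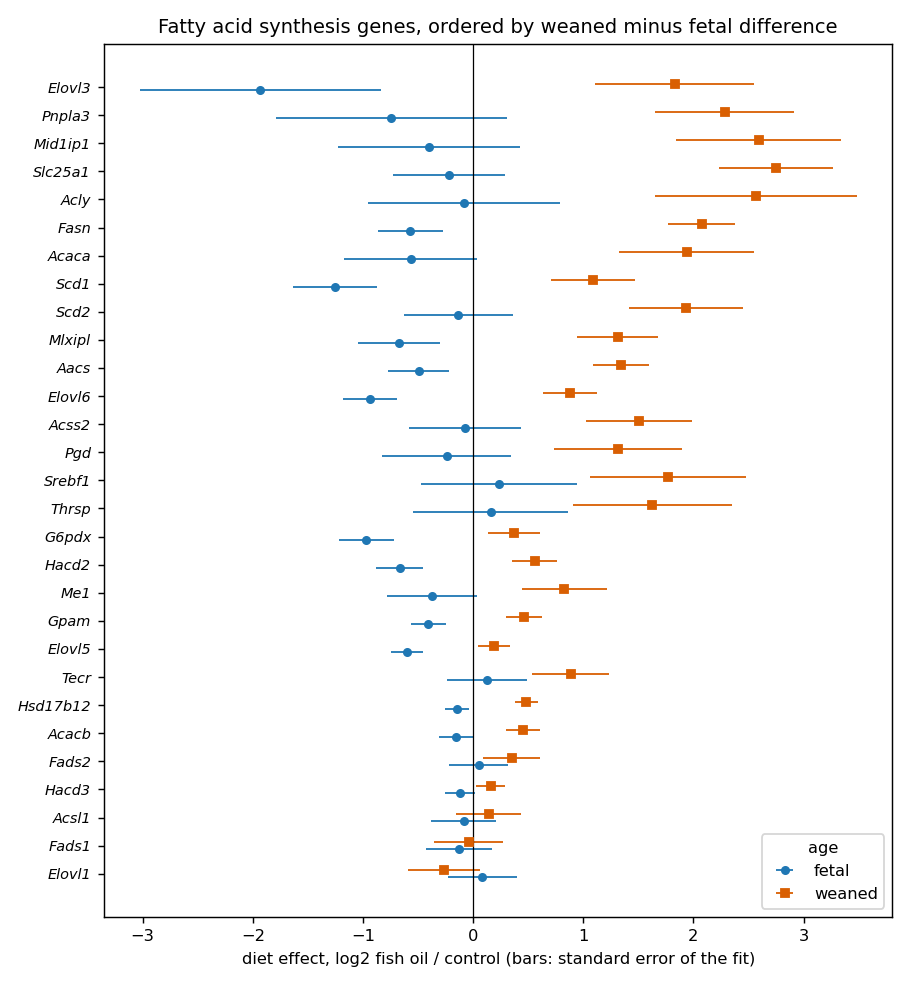
Diet effects of the 29 fatty acid synthesis genes (log2 of fish oil over control, with the standard error of the fit), fetal in blue and weaned in orange, ordered by the difference. Weaned effects lie to the right of fetal effects for 28 of the 29 genes, and weaned errors are wide for Acly, Elovl3 and Srebf1.

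Fasn, which builds palmitate, was measured at 205, 170.2 and 206 CPM in fetal control and 131, 119.7 and 140.4 CPM in fetal fish oil libraries. The weaned values were 1856, 1559.8 and 1744 CPM in control and 3160.0, 8274 and 10307 CPM in fish oil libraries. The groups did not overlap at either age, and weaned fish oil replicate 1 was the lowest of its group. Fasn was 1.48-fold lower in the fetus (log2 effect -0.57 ± 0.298) and rose 4.21-fold at weaning (2.07 ± 0.307, adjusted p = 0.0496 in edgeR). With the weaned libraries fitted alone the weaned effect did not pass (adjusted p = 0.849). The difference was 2.64 ± 0.426 (adjusted p = 0.0568, and 0.0159 with all 18 libraries).

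The citrate carrier gene Slc25a1 ran from 15.2 to 16.0 CPM in fetuses of control mothers and from 12.8 to 14.4 CPM in those of fish oil mothers. Weaned libraries held 14.0, 18.8 and 20.3 CPM with the control diet and 21.98, 174 and 161 CPM with fish oil, so that 2 of the 3 fish oil libraries carried its weaned effect of 2.75 ± 0.518. Acly and Acaca had the same split: weaned fish oil replicate 1 held 71.3 CPM of Acly, below the control range of 78.4 to 587 CPM, and 152 CPM of Acaca, inside the control range of 97.3 to 409 CPM, beside 2052 and 2689 CPM of Acly and 1137 and 1221 CPM of Acaca in replicates 2 and 3. Srebf1, the gene of the lipogenic factor named above, had a fetal effect of 0.24 ± 0.712 and a weaned effect of 1.77 ± 0.707, with 14.9, 240.1 and 163 CPM in weaned fish oil libraries. It did not share the negative fetal effect.

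Scd1, which introduces the double bond of oleate, stood at 1246, 1129 and 1046 CPM in fetal control and 530.3, 391 and 512 CPM in fetal fish oil libraries. Its weaned values were 4939, 3639.7 and 1641 CPM in control and 11760.4, 4186 and 5771 CPM in fish oil libraries, which overlapped, and here weaned fish oil replicate 1 was the highest of all. The difference was 2.34 ± 0.537 (adjusted p = 0.232 in edgeR). Elovl6, the elongase of palmitate, was at 288, 255 and 243 CPM in fetal control, 148, 136 and 127 CPM in fetal fish oil, 559, 485 and 859.6 CPM in weaned control and 757, 1169.7 and 1577 CPM in weaned fish oil libraries. It overlapped at weaning only, and the difference was 1.82 ± 0.344 (adjusted p = 0.121). Elovl3, an elongase of brown fat, had the highest difference of the list (3.77 ± 1.30) and the widest error of a difference in it. Its level was 0.157 to 3.86 CPM in the 6 fetal libraries, and 129 CPM in weaned fish oil replicate 1 stood against 17.9 and 11.1 CPM in the other two.

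With the fetal libraries fitted alone, where the spread was that of the fetal libraries, 604 of 13331 genes passed (4.53%; 351 lower with fish oil, 2.63%, and 253 higher, 1.90%). By that fit 12 of the 29 fatty acid synthesis genes fell and none rose. Among them were Scd1 (adjusted p = 1.02e-05), Elovl6 (1.49e-05), G6pdx (0.000244), Fasn (0.00145) and Acaca (0.00185). With the weaned libraries fitted alone, none of 12699 genes passed in edgeR (643 at an unadjusted p under 0.05). With each age fitted alone, members of the list thus passed in the fetus and none at weaning. The biological coefficient of variation was 8.98% in the fetal fit and 26.8% in the weaned fit. In the fit of both ages together, 0 members passed for the fetal effect and 1 (Fasn) for the weaned effect.

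The other lipid lists moved less. Of 23 cholesterol synthesis genes tested, 14 (60.9%) had a negative fetal and positive weaned effect, with medians of -0.10 and 0.57, and none passed. Cyp51, the sterol demethylase, was at 7.63, 11.5 and 8.90 CPM in fetal control, 7.07, 8.81 and 6.81 CPM in fetal fish oil, 9.00, 7.54 and 8.65 CPM in weaned control and 13.7, 25.7 and 23.1 CPM in weaned fish oil libraries. Its diets overlapped in the fetus and not at weaning, and the difference was 1.62 ± 0.323 (adjusted p = 0.149 in edgeR). Of 19 genes of triglyceride synthesis and lipid droplets, 9 (47.4%) had the pattern, and Agpat2 and Plin2 were called with all 18 libraries. Scaling by library size alone left 5 of 19 and turned the fetal median from -0.05 to 0.013; it also raised the fetal median of all genes to 0.07 and gave 3158 of the 14413 genes the pattern.

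Agpat2, the acyltransferase that makes phosphatidic acid, fell from 37.2, 43.0 and 27.3 CPM in fetal control to 21.7, 15.4 and 14.2 CPM in fetal fish oil libraries in the fit of fetal libraries alone (adjusted p = 0.00171 in edgeR). In the fit of both ages together that fall did not pass (adjusted p = 0.573 in edgeR). At weaning, Agpat2 was at 98.7, 85.5 and 196 CPM in control and 203, 374 and 310.3 CPM in fish oil libraries. The groups did not overlap at either age, and the difference was 2.29 ± 0.442 (adjusted p = 0.130, and 0.0263 with all 18 libraries). Plin2, a coat protein of lipid droplets, was at 58.3 to 75.5 CPM in all 6 fetal libraries. At weaning it rose 2.58-fold, from 95.2, 93.4 and 156 CPM to 330.0, 300.3 and 259.6 CPM. This weaned effect passed in the fit of both ages together (1.37 ± 0.189, adjusted p = 0.0451 in edgeR). With the weaned libraries fitted alone it did not pass (adjusted p = 0.849). The fit of both ages together thus gave the gene a weaned effect without a fetal one (-0.05 ± 0.188). Pck1, the glyceroneogenic enzyme, ran against its list. It was at 756, 968 and 915 CPM in fetal control and 2138, 1737 and 2151 CPM in fetal fish oil libraries (higher with fish oil in the fetal libraries alone, adjusted p = 1.02e-05), and at 1927, 2105 and 789 CPM in weaned control and 2183, 317 and 765 CPM in weaned fish oil libraries, which overlapped. The difference was -1.75 ± 0.727 (adjusted p = 0.523).

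**Figure D4:**
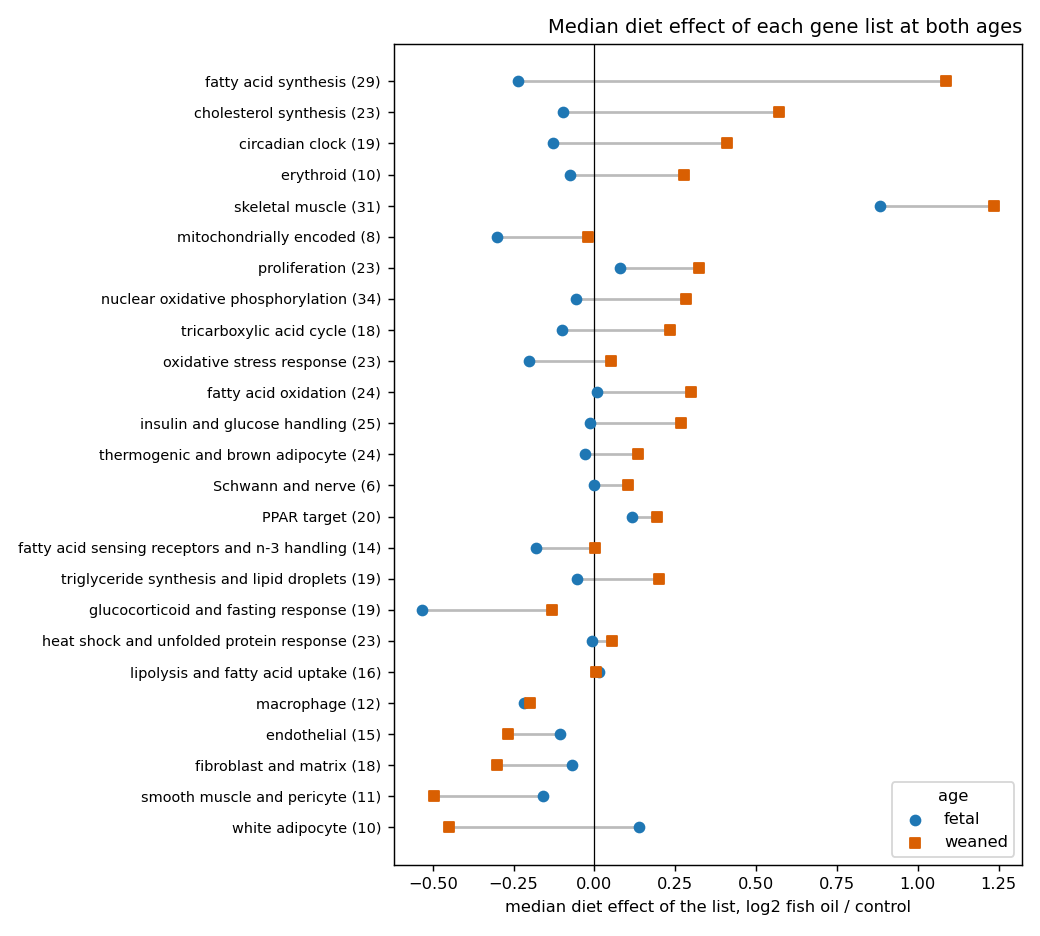
Median diet effect of each gene list with at least 5 tested members (number in brackets), in the fetus (blue circles) and at weaning (orange squares), on the log2 scale. Fatty acid synthesis has the widest gap, from -0.24 to 1.09, and the skeletal muscle list lies on the positive side at both ages.

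Mitochondrial genes of the nucleus had small positive differences, while the sign of their fetal effects depended on the scaling. Of 34 nuclear oxidative phosphorylation genes, 25 (73.5%) had a negative fetal and a positive weaned effect and all 34 had a positive difference, with medians of -0.06 in the fetus, 0.28 at weaning and 0.32 for the difference. None passed, and 12 had an unadjusted p under 0.05. Over all genes tested, 51.1% had a positive difference, and 4.92% had one with an unadjusted p under 0.05. Scaled by library size alone, all 34 differences were still positive (median 0.30), but 16 genes had the pattern and the fetal median was 0.0072. Uqcrc1, a core subunit of complex III, was at 497, 485 and 475 CPM in fetal control, 429.7, 437 and 459 CPM in fetal fish oil, 535, 449 and 426 CPM in weaned control and 519, 681 and 680.4 CPM in weaned fish oil libraries. Fetal groups did not overlap, and of the weaned fish oil libraries replicate 1 was inside the span of the controls. Of 18 tricarboxylic acid cycle genes, 15 (83.3%) had the pattern and all 18 had a positive difference (median 0.31), and 12 had the pattern with library size alone. Of 24 fatty acid oxidation genes, 11 (45.8%) had it, with a median of 0.01 in the fetus and 0.30 at weaning, and 7 had it with library size alone or without weaned fish oil replicate 1. The 8 tested genes of the mitochondrial genome had a median of -0.30 in the fetus and of -0.02 at weaning. In the fit of fetal libraries alone 6 of the 8 fell, beside 2.63% of all genes. Of these 8 genes, 4 had the pattern, and 2 had it without weaned control replicate 3 or without weaned fish oil replicate 3.

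The mean over the clock list separated the diets at both ages, but most of its genes did not do so singly. Of the 19 genes, 14 had a positive difference, and 1 (Per2) lacked overlap at both ages in opposite directions. Of 19 circadian clock genes tested, 10 (52.6%) had a negative fetal and positive weaned effect, with medians of -0.13, 0.41 and 0.57 for the difference. Per2, described next, passed with all 18 libraries. That mean, in log2 CPM, was 3.66 to 3.67 with the control diet and 3.44 to 3.62 with fish oil in the fetus, and 3.69 to 3.75 with the control diet and 4.12 to 4.21 with fish oil at weaning. The diets did not overlap at either age, and weaned fish oil replicate 1 lay with the other libraries of its group.

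Per2, a repressor of the clock, was at 28.6, 28.8 and 26.1 CPM in fetal control and 16.0, 21.6 and 21.2 CPM in fetal fish oil libraries. At weaning it was at 16.9, 15.4 and 16.0 CPM in control and 22.8, 33.5 and 36.0 CPM in fish oil libraries. The order reversed without overlap, with a difference of 1.44 ± 0.238 (adjusted p = 0.0568, and 0.0206 with all 18 libraries, edgeR). Tef, an output factor of the clock, had effects of -0.47 and 0.92 (adjusted p of the difference = 0.347), and Ciart, a repressor, had effects of -0.32 and 1.21. The core activator Arntl (-0.43 and 0.05) and the repressor Nr1d1 (0.33 and 0.03) did not share the weaned effect. The hour at which tissue was taken is not given in the labels, and its part in these values was not tested.

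**Figure D5:**
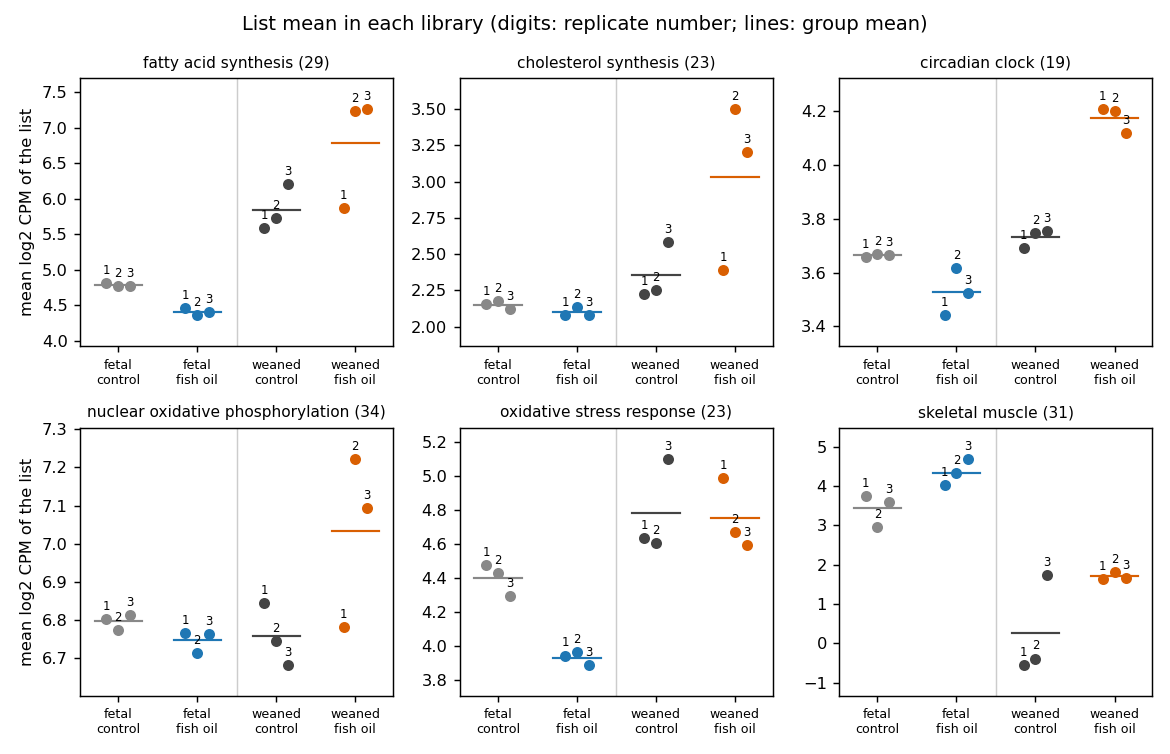
Mean log2 CPM over the tested members of 6 gene lists in each library, with the replicate number above each point and the group mean as a line. Weaned fish oil replicate 1 lies near the weaned control libraries in fatty acid synthesis, cholesterol synthesis and nuclear oxidative phosphorylation and with its own group in the circadian clock, and weaned control replicate 3 lies near the weaned fish oil libraries in skeletal muscle.

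Thermogenic genes did not turn as a group. Of 24 tested, 7 (29.2%) had the negative-to-positive pattern and 4 (16.7%) the reverse, beside 24.7 and 24.6% of all genes. Ucp1 was at 2444, 2238 and 1756 CPM in fetal control and 1402, 1301 and 969 CPM in fetal fish oil libraries, without overlap. At weaning it was at 2416, 2636 and 4588 CPM in control and 3538, 2737 and 4657 CPM in fish oil libraries, which overlapped. Ucp1 fell in the fetal libraries fitted alone (adjusted p = 0.00165), and its difference was 0.99 ± 0.359 (adjusted p = 0.477). Dio2, the deiodinase that activates thyroid hormone, had negative effects at both ages (-1.15 and -0.56), and the coactivator Ppargc1a had effects near 0 (-0.04 and -0.09).

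Lists of stress and hormone responsive genes are given beside the 2.63% of all genes that fell in the fetal libraries fitted alone. Of 19 genes of the glucocorticoid and fasting list, 18 had a negative fetal effect, 9 fell in the fetal libraries alone, 13 had a negative weaned effect, and 6 (31.6%) had the negative-to-positive pattern, or 10 without weaned fish oil replicate 2. The median difference of 0.16 turned to -0.26 without weaned fish oil replicate 1 and to -0.11 without weaned control replicate 3. Prodh passed, as given above. Rasd1, a small G protein induced by glucocorticoids, fell in the fetus (-1.80 ± 0.280, adjusted p = 0.0393) and had a weaned effect of 0.06 ± 0.248. Of 23 oxidative stress genes, 12 (52.2%) had the pattern and 8 fell in the fetal libraries alone. Hmox1, heme oxygenase 1, was at 54.1, 71.8 and 58.7 CPM in fetal control and 14.1, 18.8 and 21.3 CPM in fetal fish oil libraries, without overlap. Weaned values of Hmox1 were 7.45, 7.29 and 9.77 CPM in control and 52.2, 5.35 and 3.76 CPM in fish oil libraries, so that replicate 1 was the highest and the other two were the lowest of the 6, with a weaned effect of 1.33 ± 0.703. The metallothionein gene Mt2 (-1.70 and 0.40) had the same high library, at 21.9 CPM beside 0.729 and 2.92 CPM, and its difference turned to -0.15 without it.

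Glucose handling genes were mixed, with 8 of 25 (32.0%) in the pattern. In the fetal libraries fitted alone, 4 of the 25 fell and 4 rose, beside 2.63 and 1.90% of all genes. Hexokinase 2 (Hk2, -0.48 and 1.30), the insulin responsive transporter gene Slc2a4 (-0.81 and 0.49) and the factor Foxo1 (-1.02 and 0.01) each fell in the fetal libraries alone (adjusted p = 0.00866, 0.000434 and 1.49e-05), and none passed for the difference. Of 23 heat shock and unfolded protein genes, 9 (39.1%) had the pattern. Hspa8, a constitutive chaperone, had effects of -0.20 and 1.23 (adjusted p of the difference = 0.232). Lists of lipolysis and fatty acid uptake (4 of 16, 25.0%), PPAR targets (6 of 20) and proliferation (5 of 23, 21.7%) had shares near the 24.7% of all genes. Without weaned fish oil replicate 1 the counts were 3 of 20 PPAR targets and 2 of 23 proliferation genes, and without weaned control replicate 3 it was 2 of 16 for lipolysis and uptake.

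Of the lists of other cell types, skeletal muscle had 20 members past the threshold in the fetal libraries fitted alone, white adipocytes had 1, and none of the others had any. Of 31 skeletal muscle genes, 31 had a positive fetal effect (the 20 past the threshold all rose, beside 1.90% of all genes) and 28 a positive weaned effect, and none had the negative-to-positive pattern. Their summed level in the fetus was 1093 to 1801 CPM with the control diet and 2175 to 3683 CPM with fish oil. At weaning it was 101.6, 99.4 and 368 CPM with the control diet and 280.3 to 376 CPM with fish oil, and control replicate 3 was inside the fish oil span. None of the 15 endothelial genes had a positive weaned effect (medians -0.11 and -0.27), with summed levels of 748 to 1012 CPM in weaned controls and 661 to 829 CPM with fish oil, which overlapped, and the smooth muscle and pericyte list had medians of -0.16 and -0.50. White adipocyte genes had medians of 0.14 and -0.45, and 5 of 10 tested (50.0%) had the positive-to-negative pattern. Nnat and Agt of that list were highest in weaned control replicate 2, at 13.0 and 24.2 CPM. Without that library the weaned median was -0.08, the median difference was -0.0042 and 3 of 10 had that pattern. None of the 11 lymphocyte genes passed the count filter. In tissue RNA, fewer cells of a type and less RNA per cell cannot be told apart, and the part of these markers in the results was not tested.

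Adult libraries, scaled together with the other 12, show how these 4 genes and Fasn stood after the high fat diet. The adult diet effect passed for 142 of 14366 genes (0.988%, edgeR with all 18 libraries), and for none of these. Setd7 had an adult effect of 0.35 ± 0.119 (adjusted p = 0.397), Aspg of -0.54 ± 0.201 (0.514), Prodh of 0.12 ± 0.285 (0.994) and Snx10 of -0.08 ± 0.160 (0.993). Fasn was at 8278, 7359 and 8933 CPM in adult control and 4609, 6329 and 3259.7 CPM in adult fish oil libraries, again without overlap, with an effect of -0.79 ± 0.293 that did not pass (adjusted p = 0.507).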

How the data were processed

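Per the labels' protocols, RNA was extracted with Trizol and made into TruSeq libraries. The authors deposited raw counts per Ensembl gene (55416 genes) in 3 columns, and the forward count column was used. Per the submitters' processing notes, Bowtie 0.12.2 and STAR were used and mm8 and mm9 are named; no source used here names the annotation. Symbols matched 52083 genes (99.97% of counts).

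Counts of the 12 libraries were filtered with filterByExpr, scaled by TMM and fitted in 4 groups with edgeR 4.0.16 (quasi-likelihood, R 4.3.3), after a test on simulated data. Adjustment followed Benjamini-Hochberg across 14413 genes, with a threshold of 0.05. Errors after log2 values are standard errors. Alternatives were DESeq2 1.42.0, limma 3.58.1 voom with and without weights per age, other scalings, columns, filters and libraries, each age fitted alone, a replicate block, and each library left out.

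The members, lists and tests were chosen with earlier results of these data known. Named genes were those past the threshold with 12 or with 18 libraries, the 12 highest and 12 lowest differences among genes without overlap at either age, in opposite directions (unadjusted p under 0.05, at least 5 CPM in 1 group), 15 genes always given, and the 3 members of each list with the lowest p. Predicted genes were counted only. List members outside this rule (Arntl, Nr1d1, Ciart, Elovl1) were named after their values were seen. Across 28 lists, 461 of 515 symbols were tested. Levels printed for adults come from the 18-library scaling, and those of Xist, Ddx3y, Ucp1 and Cidea over libraries too. Replicate numbers were not taken to pair libraries, though the values do not settle whether they do. Of 6 same-number pairs, 2 had a correlation above 0.1 (range -0.14 to 0.28). Of the genes past the threshold, 1 is not reported here.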

Additional observations from a re-analysis of the deposited data

Results flagged for a closer look

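The diet effect differed between the 2 ages in 5 genes, 4 of them described here, by the test of the difference itself (edgeR, adjusted p under 0.05), with weaned minus fetal log2 values of 1.95 for Snx10, 1.26 for Setd7, 2.00 for Prodh and 2.11 for Aspg. In Setd7, Prodh and Aspg the 3 fish oil libraries lay below the 3 control libraries in the fetus and above them at weaning. In Snx10 the weaned libraries overlapped. Raw counts behind the lowest group of each gene were 71 to 103 for Snx10, 363 to 469 for Setd7, 64 to 105 for Prodh and 33 to 41 for Aspg.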

How the results depend on the processing

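Snx10, Setd7, Prodh and Aspg kept their direction in each of the 22 alternatives run and passed in 10 or 11 of them, with adjusted p-values up to 0.186. Counts of genes past the threshold, for the difference, the fetal and the weaned effect in turn, were 5, 9 and 4 in the 12-library fit, 74, 32 and 105 with DESeq2, 0, 4 and 3 with limma-voom, 13, 167 and 0 with weights per age, 8, 8 and 16 without TMM, 331, 218 and 706 without the low-count filter, and 18, 14 and 38 with all 18 libraries. With each age fitted alone, 604 genes passed in the fetus and 0 at weaning. With the replicate block they were 3, 1 and 11, of which 1, 1 and 3 were shared with the fit without it. Of the 5 genes past the threshold for the difference, 4 did not pass with the block. Same-numbered libraries were not taken to pair in the main fit, but the values do not settle whether they do. In the fetus every library correlated best with its own number (0.041 to 0.074). At weaning this held for replicates 1 (0.28) and 3 (0.24) and not for replicate 2 (-0.14). Leaving out 1 library in turn gave 0 to 293 genes for the difference, 0 to 21 for the fetal effect and 0 to 1347 for the weaned effect (1347 without weaned fish oil replicate 1, 136 without weaned control replicate 3). It gave 40 to 159 genes of opposite sign at an unadjusted p under 0.05 at both ages (159 also without the low-count filter) and 236 to 496 without overlap at either age; fewer libraries make an overlap less likely. The share of opposite signs was 39.4 to 51.1%.

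Of 115 named genes, 106 kept the sign of the difference in every alternative run, and the other 9 changed it where 1 library was left out. Over the 12 libraries left out in turn, their differences ran from -0.80 (without weaned fish oil replicate 1) to 1.74 for Dio2, from -0.15 (the same library) to 2.64 for Mt2, from -1.21 (the same library) to 3.54 for Mfsd2a, from -1.81 to 0.19 (without weaned control replicate 2) for Agt, from -0.44 to 0.026 (without weaned fish oil replicate 3) for Mbp, from -0.67 to 0.0055 (without fetal control replicate 2) for Eif2s3y, and, with several libraries turning the sign, from -1.10 to 0.15 for Acan, from -0.76 to 0.36 for Sox9 and from -0.36 to 0.12 for Ppargc1a. The cause was not tested. Among Snx10, Setd7, Prodh and Aspg, the lowest counts in a library were 33, 35 and 41, for Aspg. Other named genes had fewer, such as Hr with 14, 9 and 5 counts in the fetal fish oil libraries.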
